A study of Homo sapiens with 8 samples.

Results

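PIGL encodes an enzyme of the pathway that builds the glycosylphosphatidylinositol (GPI) anchor. It was described beside 9 other genes of that pathway, PIGA, PIGB, PIGC, PIGF, PIGK, PIGN, PIGO, PIGS and PIGT. All 10 were found by symbol among the 16153 genes of the deposited table. PIGL was chosen because its RNA was among those that differed most between flight and ground libraries in this same table, so its flight values are given as a description, with no test. The other 9 were chosen by their place in the pathway, to ask whether PIGL moved alone.

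The cells were HMEC-1, an immortalised human microvascular endothelial line. The space_microg group held 3 libraries from cells kept weightless in an incubator on the International Space Station. The space_1g group held 2 libraries from cells that flew as well, but inside the incubator's centrifuge, which gave them a weight of 1 g. The ground group held 3 libraries from cells kept in a facility in the home laboratory. All 3 groups were of this 1 line, with no drug or engineered allele named in the labels, grown on gelatin-coated coverslips inside automated culture units. The labels' protocols say that the flown cells were fixed in orbit and stored at 6 °C after return. Storage at 6 °C is listed for the libraries of every group, ground included. Control cells, per the same protocols, came back to the laboratory by airliner while the others travelled to orbit. Radiation, transport and other conditions of flight therefore differ from ground together with weight, and cannot be told apart. The labels do not say whether the libraries of a group came from separate cultures, so p-values measure the spread between these libraries, which may be technical.

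A GPI anchor is a glycolipid that holds many proteins on the outer face of the plasma membrane. It is built on phosphatidylinositol in the endoplasmic reticulum. N-acetylglucosamine is added first, its acetyl group is removed by PIGL, then mannoses and ethanolamine phosphates follow, and a transamidase finally transfers the finished anchor to a protein. Loss of PIGA in blood stem cells causes paroxysmal nocturnal haemoglobinuria, because blood cells then lack the GPI-anchored complement inhibitors CD55 and CD59. Endothelial cells carry these inhibitors too.

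Libraries held 24248964 to 35388757 reads in the listed genes, and values below are CPM, read counts put on a common library total and scaled by the authors. Across all genes, space_1g replicate 1 and ground replicate 3 stood apart: they scored 60.7 and 64.7 on the leading principal component (61.9% of variance), where the other 6 libraries lay between -31.1 and 1.51. Differences of the 10 genes and counts over the lists are given with and without them. GC content and transcript length together accounted for 53.3% of the deviation of space_microg replicate 2 from the mean over libraries, and for 2.15% to 21.1% in the others. All 10 endothelial markers searched, among them PECAM1, CDH5, KDR and VWF, were listed. Their summed level was 1839, 1249 and 1550 CPM in space_microg, 1527 and 1370 CPM in space_1g, and 2051, 2139 and 1808 CPM on the ground, so that each flight library but space_microg replicate 1 was below all ground libraries. Of markers of other cells, 3 of 6 were listed for fibroblasts (summed level 131 to 264 CPM in space_microg, 101 to 276 in space_1g and 154 to 232 on the ground), 4 of 6 for smooth muscle and pericytes (49.3 to 56.4, 44.9 to 63.8 and 46.1 to 63.6), 2 of 6 for epithelium (263 to 368, 265 to 281 and 254 to 364), and 1 of 6 for leukocytes (1.93 to 2.88, 1.04 to 2.34 and 1.04 to 1.87). The fibroblast markers DCN, LUM and PDGFRA, EPCAM and CDH1 of epithelium, and PTPRC of leukocytes were not among the listed genes, so their levels were not analysed here. Whether the marker levels play a part in the results below was not tested. In bulk RNA a change in the share of cells that make a transcript and a change in RNA per cell cannot be told apart.

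The stretches of DNA around the RefSeq starts of PIGL, PIGA and PIGB are shown first. PIGL is the gene chosen for its flight values, and PIGA acts in the step before it. PIGB adds the third mannose later in the pathway and had the highest correlation with PIGL among the members. Each stretch runs from 250 bases before the start to 50 after it, 5′ to 3′ on the strand of the gene, in build GRCh38.p14. PIGL lies at chr17:16216960-16217259 (plus strand), PIGA at chrX:15335505-15335804 (minus strand) and PIGB at chr15:55318972-55319271 (plus strand). Capitals mark matches on either strand to CCAAT or to TTCCGG, the core bound by factors of the ETS family, which includes regulators of endothelial genes.
PIGL: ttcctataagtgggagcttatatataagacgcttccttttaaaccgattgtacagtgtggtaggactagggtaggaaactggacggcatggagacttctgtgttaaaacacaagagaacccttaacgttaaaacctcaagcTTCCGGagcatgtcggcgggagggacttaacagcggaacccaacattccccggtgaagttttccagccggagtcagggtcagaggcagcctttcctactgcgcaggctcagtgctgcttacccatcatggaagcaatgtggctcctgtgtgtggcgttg
PIGA: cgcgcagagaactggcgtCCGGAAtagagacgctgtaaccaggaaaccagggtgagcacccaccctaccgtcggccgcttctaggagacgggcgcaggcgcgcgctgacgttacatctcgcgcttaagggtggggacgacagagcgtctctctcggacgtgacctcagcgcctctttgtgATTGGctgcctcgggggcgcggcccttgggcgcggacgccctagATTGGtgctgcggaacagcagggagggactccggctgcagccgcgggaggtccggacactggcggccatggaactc
PIGB: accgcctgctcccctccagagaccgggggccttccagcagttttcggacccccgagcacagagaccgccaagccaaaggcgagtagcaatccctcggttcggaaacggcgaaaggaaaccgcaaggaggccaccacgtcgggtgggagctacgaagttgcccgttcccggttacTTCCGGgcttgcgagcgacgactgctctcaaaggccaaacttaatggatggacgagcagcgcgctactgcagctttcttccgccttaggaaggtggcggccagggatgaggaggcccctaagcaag
The PIGL stretch held 12 CpG pairs with a GC content of 50.7%, against 33 pairs and 66.7% for PIGA and 25 pairs and 62.0% for PIGB. TTCCGG was found in 7 of the 9 members with a RefSeq entry, PIGL among them, and in 17.6% of all 27305 promoters. CCAAT was found in 5 of 9, not in PIGL, and in 35.7% of all. The GC box GGGCGG was found in 2 of 9, not in PIGL, and in 44.6% of all, and TATAAA in 0 of 9 against 12.0% of all. These 4 strings were searched on both strands and do not overlap one another in these stretches. A match describes letters only and shows no binding.

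PIGL was about doubled in every flight library. PIGL, the de-N-acetylase of the second step, had 13.8, 15.4 and 13.4 CPM in space_microg, 14.0 and 15.7 CPM in space_1g, and 7.68, 8.77 and 5.55 CPM on the ground. All 5 flight libraries lay above all 3 ground libraries, and the lowest flight library was 1.53 times the highest ground library. These values rest on 400 to 527 PIGL reads in a flight library and 181 to 220 in a ground library. The mean was 14.2 ± 1.04 CPM in space_microg (SD, n = 3), 14.9 ± 1.20 in space_1g (n = 2) and 7.33 ± 1.64 on the ground (n = 3), which is 1.94 times the ground mean in space_microg and 2.03 times in space_1g. On the log2(CPM + 1) scale PIGL was 0.88 ± 0.21 higher in space_microg than on the ground and 0.95 ± 0.23 higher in space_1g than on the ground (limma, ± SE). Without space_1g replicate 1 and ground replicate 3 these differences were 0.72 and 0.86. Both comparisons use the same ground libraries, and PIGL was chosen from them, so they are no independent evidence of each other. For scale, across the 16103 genes tested, 7.88% were higher without overlap in space_microg than on the ground, 4.94% in space_1g, and 1.57% in all 5 flight libraries together.

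Weightlessness itself was compared by setting both flight groups against each other, which the choice of PIGL did not use. PIGL differed by -0.06 ± 0.23 between space_microg and space_1g, with a 95% interval of -0.59 to 0.47 (adjusted p = 0.961, limma with Benjamini-Hochberg adjustment over all genes). Leaving out space_1g replicate 1 gave -0.14, and leaving out space_1g replicate 2 gave 0.02. With the trend of each library on GC content and transcript length removed, the difference was -0.23. The libraries of both groups overlapped, but all space_microg libraries lay below space_1g replicate 2. The interval leaves room for differences of up to about 0.6 in size, so equality of the groups is not shown.

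**Figure D1:**
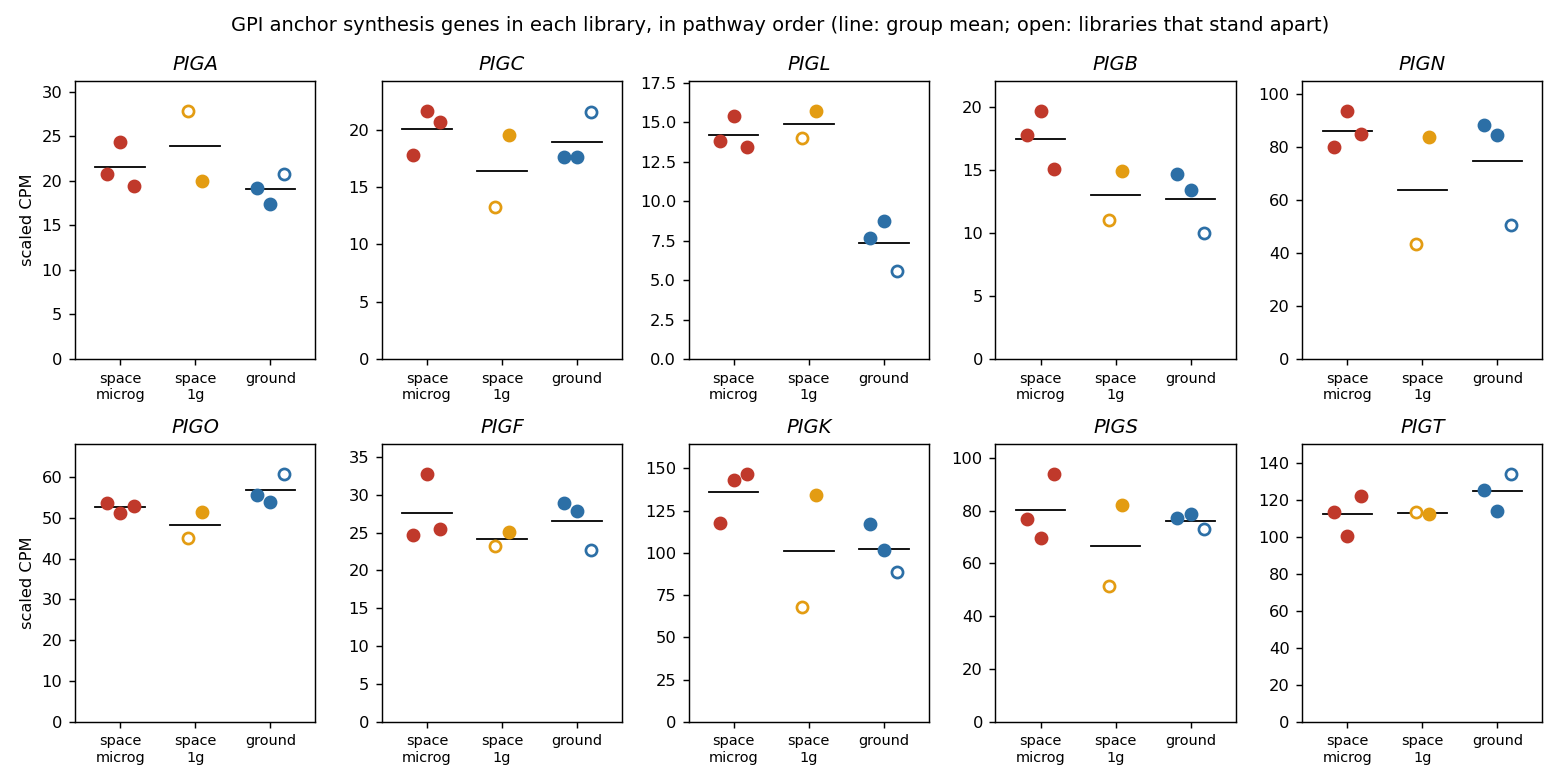
Scaled CPM of the 10 genes in each library, with one panel per gene in pathway order and linear axes from 0. Each point is 1 library, lines are group means, and open points are space_1g replicate 1 and ground replicate 3; in the PIGL panel the flight libraries lie between 13.4 and 15.7 CPM and the ground libraries between 5.55 and 8.77 CPM.

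The enzyme that acts just before PIGL, the N-acetylglucosaminyl transferase, is represented by its catalytic subunit PIGA and by PIGC. PIGA had 20.8, 24.4 and 19.4 CPM in space_microg, 27.9 and 20.0 CPM in space_1g, and 19.2, 17.4 and 20.8 CPM on the ground. Its highest value was in space_1g replicate 1, and flight and ground libraries overlapped. PIGA was 0.16 ± 0.19 higher in space_microg and 0.29 ± 0.21 higher in space_1g on the log2 scale, or 0.22 and 0.12 higher without the libraries that stand apart. Leaving out space_1g replicate 1 alone gave 0.06 in space_1g, and leaving out space_1g replicate 2 gave 0.52. PIGC had 17.8, 21.6 and 20.7 CPM in space_microg, 13.3 and 19.5 CPM in space_1g, and 17.7, 17.7 and 21.6 CPM on the ground. PIGC also overlapped, with its lowest value in space_1g replicate 1, and differed by 0.08 ± 0.20 in space_microg and -0.22 ± 0.22 in space_1g, or by 0.17 and 0.14 without the libraries that stand apart. The ratio of PIGL to PIGA in CPM, which is not adjusted for length, was 0.662, 0.630 and 0.692 in space_microg, 0.503 and 0.786 in space_1g, and 0.400, 0.505 and 0.267 on the ground. For this ratio space_1g replicate 1 fell within the range of the ground libraries, while the other flight libraries were above it.

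After PIGL, mannoses and ethanolamine phosphates are added. PIGB had 17.7, 19.7 and 15.0 CPM in space_microg, 11.1 and 14.9 CPM in space_1g, and 14.7, 13.4 and 9.96 CPM on the ground. All 3 space_microg libraries were above all ground libraries, the lowest by a narrow margin, while space_1g overlapped with ground. The log2 difference of PIGB was 0.44 ± 0.22 in space_microg and 0.03 ± 0.24 in space_1g, or 0.29 and 0.08 without both libraries that stand apart. PIGN, which adds ethanolamine phosphate to the first mannose, had 80.0, 93.7 and 84.9 CPM in space_microg, 43.3 and 84.0 CPM in space_1g, and 88.5, 84.5 and 50.8 CPM on the ground. Its spread followed the libraries that stand apart: their values of 43.3 and 50.8 CPM were far below the range of 80.0 to 93.7 CPM in the other 6. Its log2 difference of 0.24 ± 0.28 in space_microg and -0.26 ± 0.32 in space_1g became -0.01 and -0.04 without them.

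PIGO, which adds ethanolamine phosphate to the third mannose, was the 1 member below ground in every flight library. It had 53.5, 51.2 and 52.8 CPM in space_microg, 45.0 and 51.4 CPM in space_1g, and 55.5, 53.9 and 60.8 CPM on the ground. All 5 flight libraries were below all ground libraries, but 53.5 and 53.9 CPM nearly touched. The log2 difference was -0.11 ± 0.13 in space_microg and -0.23 ± 0.15 in space_1g, and -0.06 and -0.09 without the libraries that stand apart. With the trend of each library on GC content and transcript length removed, the difference in space_microg was 0.05. PIGF, the membrane partner that PIGO needs, had 24.6, 32.8 and 25.5 CPM in space_microg, 23.2 and 25.1 CPM in space_1g, and 28.9, 27.9 and 22.6 CPM on the ground. Its groups overlapped, and it differed by 0.06 ± 0.18 in space_microg and -0.12 ± 0.20 in space_1g. These values were -0.05 and -0.17 without the libraries that stand apart, so the sign in space_microg turned.

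The transamidase that attaches the anchor to proteins was represented by its catalytic subunit PIGK and by PIGS and PIGT. PIGK had 118, 143 and 147 CPM in space_microg, 68.2 and 135 CPM in space_1g, and 117, 102 and 88.5 CPM on the ground. The space_microg libraries were above the ground libraries, though 118 and 117 CPM lay side by side, and the lowest value of all was space_1g replicate 1. PIGK differed by 0.41 ± 0.25 in space_microg and -0.09 ± 0.28 in space_1g, or by 0.31 and 0.30 without the libraries that stand apart. PIGS had 76.9, 69.5 and 94.1 CPM in space_microg, 51.4 and 82.1 CPM in space_1g, and 77.2, 78.6 and 73.0 CPM on the ground. It overlapped between groups, with differences of 0.06 ± 0.20 and -0.23 ± 0.22, or 0.03 and 0.08 without the libraries that stand apart. PIGT, the subunit that holds the complex together, had 114, 101 and 122 CPM in space_microg, 113 and 112 CPM in space_1g, and 125, 114 and 134 CPM on the ground. Its space_1g libraries were below all ground libraries by a narrow margin, and its differences were -0.15 ± 0.14 in space_microg and -0.14 ± 0.15 in space_1g, or -0.10 and -0.09 without the libraries that stand apart.

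Counted over the members, space_microg against ground had 3 of 10 higher without overlap (PIGL, PIGB and PIGK) and 1 lower (PIGO), where 7.88% and 6.53% of all genes tested did so. With quantile normalization, with plain library totals or with the GC and length trend removed, PIGL was the 1 member left among the higher, and with the trend removed 0 were lower. Without both libraries that stand apart the counts were 5 and 1, beside 16.7% and 16.6% of all genes. In space_1g against ground, PIGL was higher and PIGO and PIGT were lower, beside 4.94% and 5.73% of all genes. With plain totals 2 were higher, and with the trend removed 0 were lower. Without the libraries that stand apart, when space_1g is a single library, 6 members were higher and 4 lower, beside 38.3% and 36.9% of all genes. Over all flight libraries against ground, PIGL was higher and PIGO lower, beside 1.57% and 2.23%, and with the trend removed 0 were lower. Between space_microg and space_1g, PIGB was higher without overlap in space_microg and 0 members were lower, beside 7.24% and 6.91% of all genes. With quantile normalization, plain totals or the trend removed, 0 were higher. Without the libraries that stand apart, PIGB was higher and PIGL lower in space_microg than in the 1 remaining space_1g library, beside 16.9% and 16.7%. In flight against ground without them, 5 members were higher and 1 lower, beside 14.4% and 14.3%.

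Limma called no member in any comparison, and 0 genes of 16103 (0%) in each. At an unadjusted p under 0.05, PIGL was the 1 member in space_microg against ground, where 2.05% of all genes were higher and 2.27% lower (696 genes), and in space_1g against ground, where 0.72% were higher and 0.826% lower (249 genes). It was also the 1 member in flight against ground, beside 1.11% and 1.75% (460 genes), and nothing is read from these counts since PIGL was chosen from those libraries. Between space_microg and space_1g 0 members passed, beside 0.696% and 0.621% (212 genes). All these limma counts lie below the 805 genes expected at that threshold if no gene differed. The lack of calls therefore does not show a lack of change. EdgeR called 0 genes in each of the 4 comparisons (741, 227, 463 and 221 unadjusted, in the same order). DESeq2 called 3 genes in space_microg against ground (0.0227%), none a member, and 8 in flight against ground (0.0635%), PIGL among them. It called 0 in the other comparisons, and 871, 327, 596 and 339 genes passed unadjusted over the 4, in the same order. Nothing is read from the call of PIGL either, since it was chosen from those libraries. Among the 9 genes beside PIGL, the smallest limma adjusted p was 0.866 in space_microg against ground, 1.00 in space_1g against ground and 0.912 in space_microg against space_1g. In the same order their median log2 difference was 0.08, -0.14 and 0.29, beside medians of -0.02, 0.01 and -0.03 over all genes. The median of the 9 genes was 0.03, 0.08 and 0.03 without both libraries that stand apart.

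**Figure D2:**
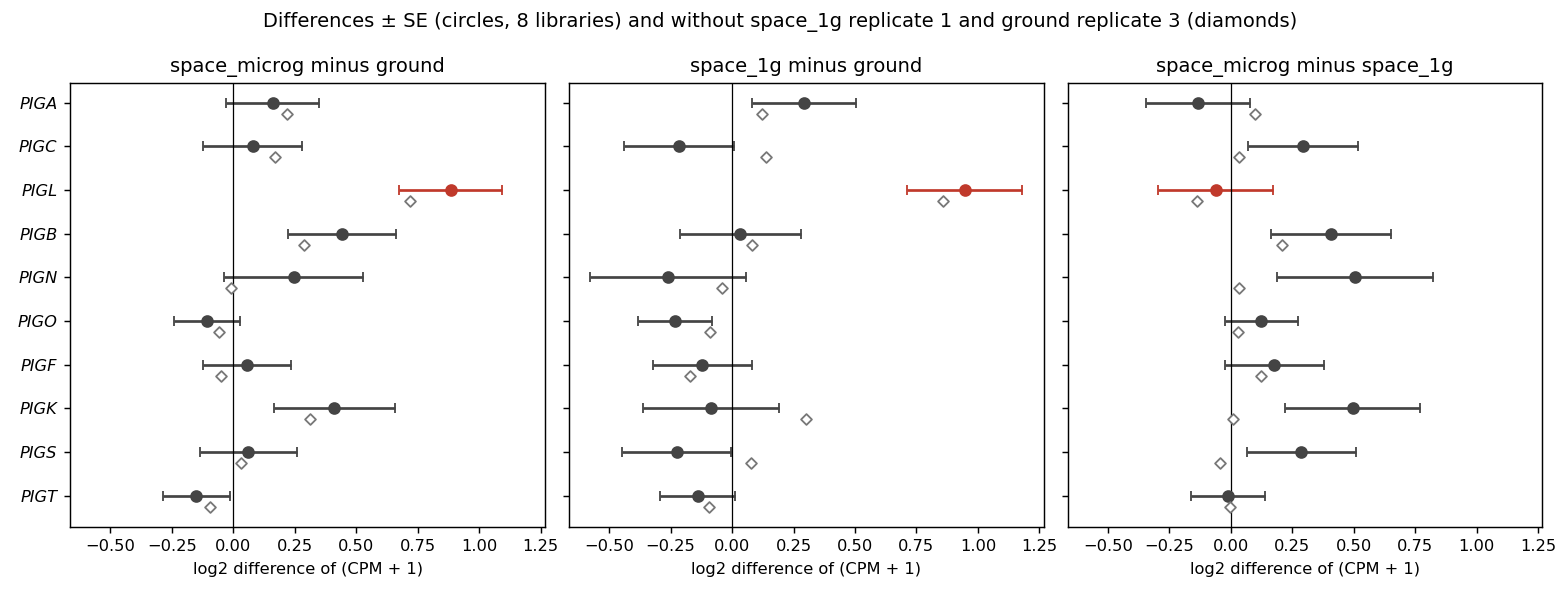
Log2 differences of the 10 genes (x axis, log2(CPM + 1) scale) for space_microg minus ground, space_1g minus ground and space_microg minus space_1g, in pathway order from top to bottom. Circles with bars are limma estimates ± SE over 8 libraries and diamonds are estimates without space_1g replicate 1 and ground replicate 3; PIGL is at 0.88 and 0.95 against ground and at -0.06 between both flight groups.

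Set against the mean of the ground libraries within each library, PIGL stood at 0.847, 0.995 and 0.811 log2 units in space_microg and 0.87 and 1.02 in space_1g, and at 0.08, 0.25 and -0.33 in the ground libraries. The median of the other 9 genes was 0.01, 0.31 and 0.13 in space_microg, -0.33 and 0.06 in space_1g, and 0.02, 0.00 and -0.06 on the ground. PIGL was the highest of the 10 genes in each of the 5 flight libraries, and ranked 5, 1 and 9 in ground replicates 1, 2 and 3. The next highest gene reached 0.61 (PIGB in space_microg replicate 2). The group difference of PIGL minus the median group difference of the other 9 was 0.81 in space_microg against ground and 1.09 in space_1g against ground. It was -0.35 between both flight groups. A spread between replicates of 0.177 (pooled SD) was taken from a related quantity. This was PIGL minus the median of the other 9 in log2(CPM + 1) within each library, not set against ground. The value between both flight groups was -0.17 without space_1g replicate 1, within that spread, and -0.54 without space_1g replicate 2. Without both libraries that stand apart, the value in space_1g against ground was 0.78. No test is given for this, since PIGL was chosen for its change.

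**Figure D3:**
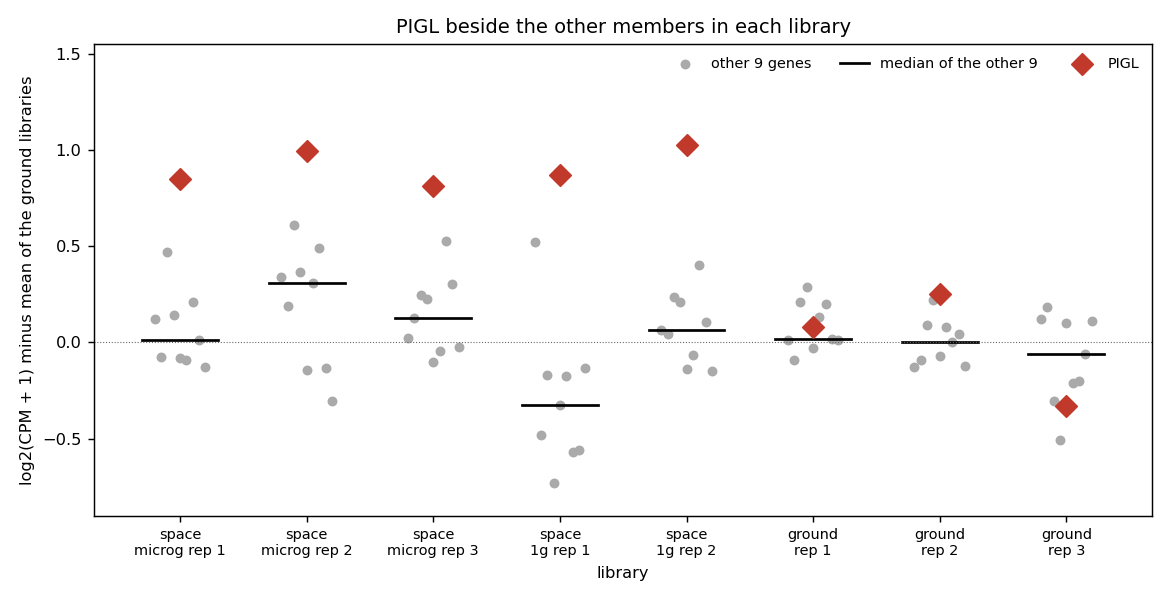
Log2(CPM + 1) of each gene minus its mean over the ground libraries (y axis) in the 8 libraries (x axis). Diamonds are PIGL, grey points the other 9 genes and lines their median; PIGL is above every other gene in the 5 flight libraries, at 0.81 to 1.02.

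Divided by the length of all annotated exons, PIGL was the lowest of the 10 genes in each group, with 2.30 ± 0.169 CPM per kb in space_microg, 2.41 ± 0.195 in space_1g and 1.19 ± 0.266 on the ground (SD). PIGK was the highest with 24.7 ± 2.88, 18.4 ± 8.51 and 18.6 ± 2.57 CPM per kb in the same order, followed by PIGS with 13.4 ± 2.11, 11.1 ± 3.62 and 12.7 ± 0.483. On the ground the next were PIGO with 7.87 ± 0.504, PIGT with 6.33 ± 0.516, PIGF with 5.32 ± 0.673, PIGN with 3.93 ± 1.09, PIGC with 3.63 ± 0.433, PIGA with 3.03 ± 0.272 and PIGB with 2.79 ± 0.538. From PIGT down to PIGB the range of mean ± SD of each gene met that of the next, so these neighbours do not differ beyond their spread. PIGL lay below PIGB beyond the spread on the ground, but not in space_1g, where PIGB had 2.86 ± 0.601 CPM per kb. This ranking depends on the divisor. PIGL has 6162 annotated exon bases but a longest transcript of 2160, against 6321 and 3877 for PIGA. Divided by the longest transcript, PIGL would lie above PIGA in both flight groups, so its lowest place is not general.

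PIGL lies at chr17:16217191-16351797 on the plus strand (GENCODE 29, GRCh38). On the opposite strand it overlaps NCOR1, a nuclear receptor corepressor, at its start and CENPV, a centromere protein, at its end, with 321 and 258 exon bases in common (5.21% and 4.19% of the exon bases of PIGL). The kit was stranded, but the sources used here do not give the strand setting of the read counting, so reads in these bases could belong to either gene. NCOR1 had 357, 385 and 313 CPM in space_microg, 444 and 417 CPM in space_1g, and 355, 401 and 396 CPM on the ground. Its flight groups lay on either side of ground, with differences of -0.13 ± 0.14 and 0.16 ± 0.16. CENPV had 12.5, 17.9 and 30.0 CPM in space_microg, 11.4 and 26.9 CPM in space_1g, and 14.8, 11.2 and 10.9 CPM on the ground. CENPV was uneven within the flight groups and overlapped with ground, with differences of 0.59 ± 0.38 and 0.49 ± 0.42. Without the libraries that stand apart they were 0.52 and 1.01, and the remaining space_1g library was above ground. The part of CENPV and NCOR1 reads in the PIGL values was not tested.

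Of 7 neighbours of PIGL, all listed, 4 were higher and 3 lower in space_microg than on the ground, with a median of 0.02 and none without overlap, beside 7.88% of all genes higher and 6.53% lower. In space_1g against ground 4 were higher and 3 lower, with a median of 0.16, and 3 were higher without overlap (NCOR1, TTC19 and ADORA2B), beside 4.94% of all genes. Without the libraries that stand apart 1 of 7 was higher without overlap in space_microg (ADORA2B) and 5 of 7 in space_1g, beside 16.7% and 38.3% of all genes. ADORA2B, an adenosine receptor, was 0.29 ± 0.23 higher in space_microg and 0.50 ± 0.26 higher in space_1g, or 0.44 and 0.76 higher without them. TTC19, a factor of mitochondrial complex III, differed by 0.11 ± 0.15 and 0.21 ± 0.17. None passed the test.

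**Figure D4:**
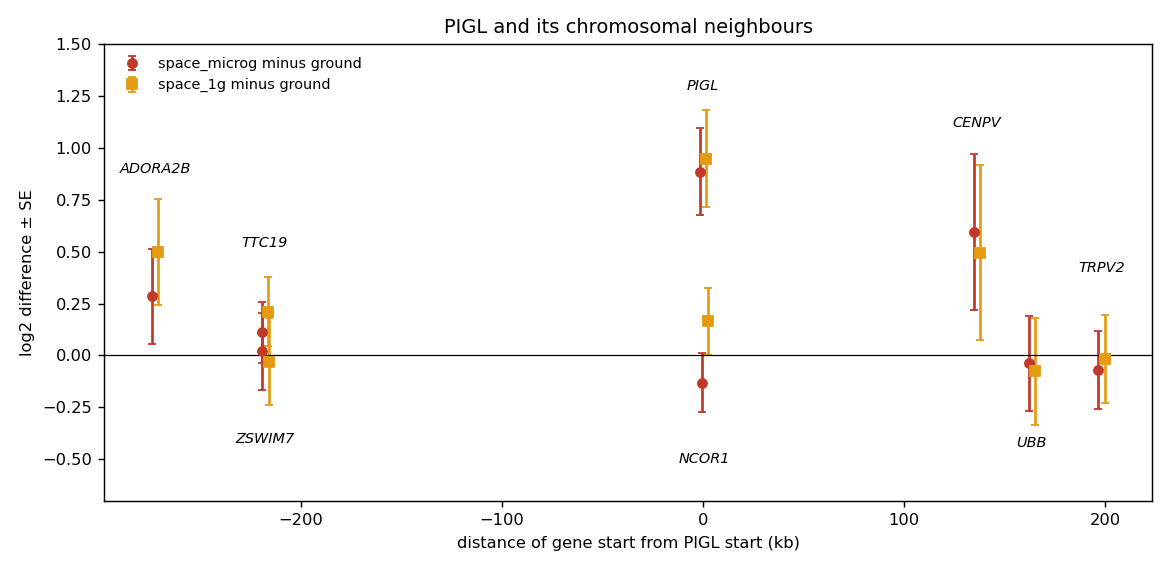
Log2 differences ± SE (y axis) of PIGL and its 7 neighbours against the distance of each gene's start from that of PIGL in kb (x axis). Circles are space_microg minus ground and squares space_1g minus ground; PIGL is at 0.88 and 0.95, and CENPV, which overlaps its end, at 0.59 and 0.49.

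Beyond the 10 genes, 23 other genes of GPI synthesis and remodelling were listed, of 26 symbols searched. In space_microg against ground 13 were higher and 10 lower with a median of 0.07, and 5 were higher and 0 lower without overlap (PIGX, PIGZ, DPM1, PGAP1 and ARV1), beside 7.88% and 6.53% of all genes. In space_1g against ground 12 were higher and 11 lower with a median of 0.00, and 2 were higher and 0 lower without overlap (PIGZ and PGAP1), beside 4.94% and 5.73%. The medians were 0.10 in space_microg and 0.13 in space_1g without the libraries that stand apart. The counts without overlap were then 8 higher and 0 lower in space_microg, beside 16.7% and 16.6% of all genes, and 14 higher and 3 lower in space_1g, beside 38.3% and 36.9%. None passed the test in either direction in any comparison, with smallest adjusted p of 0.866 and 1.00 in limma. PIGZ, which can add the fourth mannose, had 9.80, 10.2 and 7.75 CPM in space_microg, 9.36 and 9.21 CPM in space_1g, and 7.32, 6.89 and 4.01 CPM on the ground. Like PIGL, it was above ground in all 5 flight libraries and lowest in ground replicate 3. PIGZ was 0.56 ± 0.25 and 0.58 ± 0.28 higher, or 0.33 and 0.33 without the libraries that stand apart.

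PGAP1, which removes an acyl chain from the inositol of the finished anchor, had 81.2, 105 and 88.3 CPM in space_microg, 99.0 and 84.2 CPM in space_1g, and 71.8, 79.6 and 80.2 CPM on the ground. It too was above ground in all flight libraries, though 81.2 and 80.2 CPM nearly met, with differences of 0.24 ± 0.15 and 0.24 ± 0.17. DPM3, which anchors the synthase of the mannose donor, differed by 0.59 ± 0.37 and 0.44 ± 0.41 with overlap. DPM1, the catalytic subunit of that synthase, differed by 0.26 ± 0.15 in space_microg and -0.11 ± 0.17 in space_1g, and by 0.36 ± 0.17 between space_microg and space_1g (adjusted p = 0.912, limma). ARV1, a membrane protein needed early in the pathway, was 0.38 ± 0.20 higher in space_microg. PIGW, which adds the acyl chain that PGAP1 removes, was 0.29 ± 0.27 higher in space_1g, or 0.52 higher without the libraries that stand apart.

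RNA of the proteins that receive the anchor leaned lower in space_microg than on the ground, and the median turned without both libraries that stand apart. Of 44 GPI-anchored proteins searched, 30 were listed, with 9 higher and 21 lower in space_microg (median -0.17) and 14 higher and 16 lower in space_1g (median -0.01) relative to ground. Without both libraries that stand apart the medians were 0.16 and 0.05. None passed the test, and 0 in space_microg and 1 in space_1g (RGMB, lower) did not overlap with ground, beside 7.88% higher and 6.53% lower of all genes in space_microg and 4.94% and 5.73% in space_1g. Without the libraries that stand apart 2 were higher and 3 lower without overlap in space_microg, beside 16.7% and 16.6% of all genes, and 10 were higher and 13 lower in space_1g, beside 38.3% and 36.9%. HYAL2, a hyaluronidase, had 272 ± 77.1 CPM in space_microg, 274 ± 59.3 in space_1g and 361 ± 71.2 on the ground (SD), with differences of -0.43 ± 0.26 and -0.39 ± 0.29, or -0.44 and -0.63 without the libraries that stand apart. RGMB, a co-receptor of bone morphogenetic proteins, differed by -0.21 ± 0.14 in space_microg and -0.11 ± 0.16 in space_1g. CD59, the complement inhibitor and the most abundant of the list in CPM, had 1377 ± 150 CPM in space_microg, 1243 ± 270 in space_1g and 1279 ± 152 on the ground. CD55, the other complement inhibitor, had 95.7, 77.3 and 68.0 CPM in space_microg, 247 and 59.8 CPM in space_1g, and 61.8, 53.8 and 277 CPM on the ground. Its high values were in the libraries that stand apart, and its differences of -0.29 ± 0.67 in space_microg and 0.32 ± 0.75 in space_1g were 0.46 and 0.05 without them. The 3 space_microg libraries were then above both remaining ground libraries. CD59 differed by 0.11 ± 0.20 and -0.05 ± 0.22, or 0.14 and -0.24 without them. Both are named for their known dependence on the anchor and were chosen after their values were seen.

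**Figure D5:**
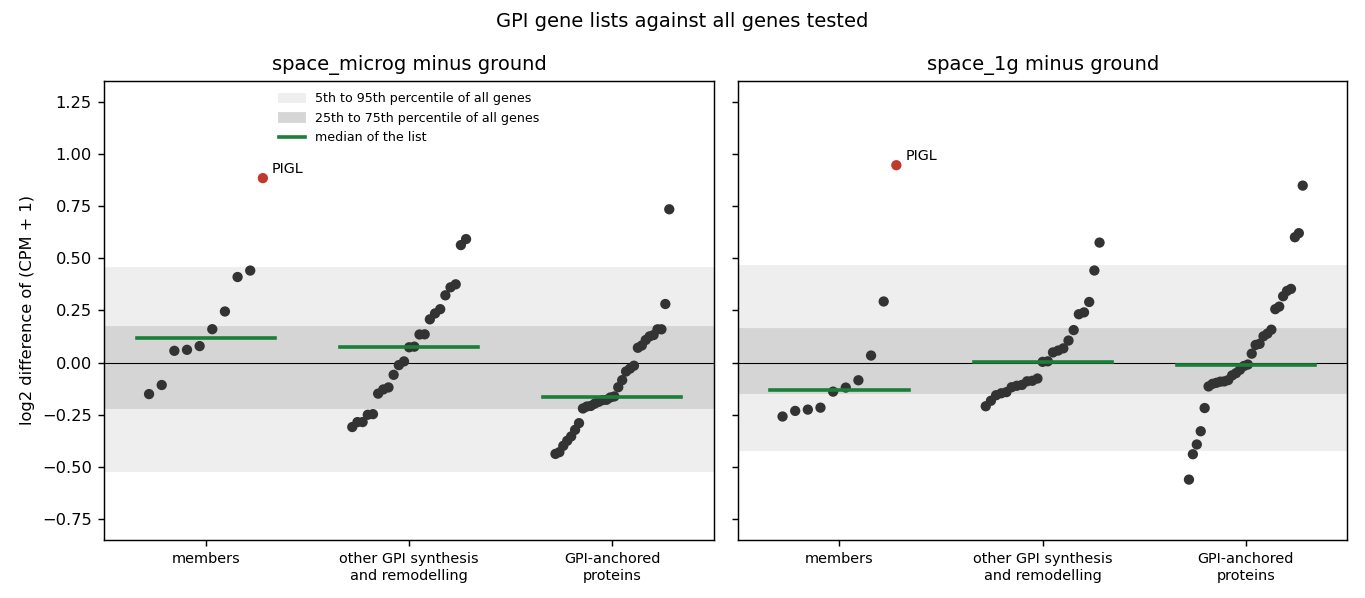
Log2 differences (y axis, log2(CPM + 1) scale) of the 10 members, 23 other GPI synthesis and remodelling genes and 30 GPI-anchored proteins, in space_microg minus ground and space_1g minus ground. Each point is 1 gene, sorted within its list, green lines are list medians and bands span percentiles of all 16103 genes; PIGL is at 0.88 and 0.95, above the 95th percentile of all genes (0.45 and 0.46).

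Across the 8 libraries on the log2(CPM + 1) scale, the 5 genes outside the list whose pattern was most like that of PIGL were AIDA (Pearson r = 0.963), TLCD2 (0.958), MBD5 (0.955), WDR7 (0.954) and PPP2R2A (0.949), out of 11384 genes with a mean of at least 5 CPM. The libraries share their depth and composition, and no p is given. AIDA had 90.3, 91.4 and 85.4 CPM in space_microg, 91.5 and 97.0 CPM in space_1g, and 76.5, 79.8 and 61.5 CPM on the ground. It was lowest in ground replicate 3, as PIGL was. MBD5 had 41.9 ± 2.20 CPM in space_microg, 44.7 ± 0.70 in space_1g and 31.8 ± 2.75 on the ground (SD). Ranked with all other genes from the top, the closest of the 9 members was PIGB, at 772 of 11393. Pearson r with PIGL was 0.61 for PIGB, 0.41 for PIGA, 0.37 for PIGK, 0.26 for PIGN, 0.18 for PIGF, -0.08 for PIGS, -0.16 for PIGC, -0.77 for PIGO and -0.79 for PIGT.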

How the data were processed

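Stranded total RNA libraries, with rRNA removed, were sequenced from HMEC-1 cells, per the labels' protocols. The deposited values are a signal per gene that the labels call CPM: the authors divided read counts by scaled library totals. The submitters' processing notes list edgeR, featureCounts, STAR 2.5.3, FastQC and CASAVA 1.8.2, as well as GRCh38 (hg38), and assign them no roles. Values in all libraries were whole multiples of 1 read (100% within 1e-06 read). TMM factors recomputed from these reads equalled those in the columns. Where no read was seen, 3 reads is the upper limit, or 0.0855 to 0.12 CPM depending on the library, for counting error only. No library was taken as a duplicate, since chi-square per degree of freedom within groups was 19.3 to 205.

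Genes reaching 1 CPM in 2 or more libraries were kept (16103, with all members), and log2(CPM + 1) was taken, a scale on which differences of low genes are understated. Limma 3.58.1 in R 4.3.3 fitted all libraries together with a mean trend and no covariates, and its two-sided p-values were adjusted by Benjamini-Hochberg over all genes at 0.05. This design was written for CPM and applied unchanged to scaled CPM. On the recovered reads, edgeR 4.0.16 and DESeq2 1.42.0 served as alternatives. Other pseudocounts, filters, scalings and fits were tried, and each library was left out. Removal of both libraries that stand apart, and of a per-library trend on GC and length, was chosen after seeing the data. The fit was also run on simulated counts with planted changes. These had a fixed spread between libraries and no libraries that stand apart, so nothing is concluded from them about these data.

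The members and lists were chosen with earlier results of these data known. Named genes were all members, up to 4 genes per wider list and comparison with the smallest p, and the 5 genes most correlated with PIGL at a mean of at least 5 CPM. Not all are described. Genes without overlap are named where a count of 5 or fewer used all libraries on the deposited scaling, and only in part for other settings. Positions are from GENCODE 29, in which 13895 of 16153 symbols were found. Promoters are from RefSeq (GRCh38.p14), with entries for 9 of 10 members. PIGF had none, and the first of 2 was used for PIGA.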

Additional observations from a re-analysis of the deposited data

How the results depend on the processing

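Limma called 0 genes in each comparison in every setting but array weights, with 615 in space_microg against ground and 69 in flight against ground, PIGL among both. DESeq2 called 3 and 8, PIGL among the 8. Nothing is read from these calls of PIGL, since it was chosen from those libraries. Leaving out each library kept 0 calls. Members higher without overlap in space_microg against ground numbered 1 with quantile normalization, plain totals or the GC and length trend removed, 5 without both libraries that stand apart, and 3 to 5 leaving out 1 library; lower were 0 with the trend removed and 1 to 2 leaving out 1 library. In space_1g against ground, higher were 2 with plain totals, 6 without both and 1 to 4 leaving out 1; lower were 4 without both, 0 with the trend removed and 2 to 6 leaving out 1. Between space_microg and space_1g, higher were 0 with quantile normalization, plain totals or the trend removed and 1 to 7 leaving out 1; lower were 1 without both or with the trend removed and 0 to 1 leaving out 1. In flight against ground, higher were 5 without both and 1 to 3 leaving out 1; lower were 0 with the trend removed and 1 to 2 leaving out 1. PIGL minus the median of the other 9 was 0.62, 0.88 and 0.75 with a pseudocount of 4 in space_microg, space_1g and flight against ground, 0.78 and 0.74 without both in space_1g and flight against ground, and -0.54 to -0.17 between both flight groups leaving out 1 library. The cause was not tested. Where 1 space_1g library was left, it was assumed to vary like the other groups. The lowest flight library had 1.45 to 1.53 times the PIGL level of the highest ground library under the 3 other scalings and 1.37 times with the trend removed. Of 920 member values recomputed, 880 moved by less than the residual SD of that gene in the main limma fit. The libraries that stand apart are part of that SD. The other 40 arose when a space_1g library, both libraries that stand apart, or the GC and length trend was removed. They were values of PIGA, PIGC, PIGK, PIGN, PIGO and PIGS.

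With the replicate number as a block, 0 genes were called in each comparison, and PIGL differed by 0.88 in space_microg and 0.85 in space_1g against ground. After the mean of each group was subtracted gene by gene, same-numbered space_microg and ground libraries correlated at -0.40, 0.56 and 0.05. These are correlations of deviations from the group means, not of whole profiles. With so few libraries in a group, these values cannot show whether the numbers pair the samples. PIGL values rest on 181 to 527 reads per library.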

Other observations

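Several genes of the pathway differed between libraries more than between groups, and the following were chosen after their values were seen. DPM2, a regulatory subunit shared by the first transferase and the mannose donor synthase, had 32.6, 28.7 and 32.6 CPM in space_microg, 45.9 and 35.2 CPM in space_1g, and 28.8, 30.9 and 58.1 CPM on the ground. Its highest values were in space_1g replicate 1 and ground replicate 3. TMEM8A, a lipase that can shed GPI-anchored proteins, had 80.3, 54.3 and 94.6 CPM in space_microg, 118 and 77.9 CPM in space_1g, and 83.7, 70.2 and 135 CPM on the ground, with the same libraries highest. PIGX, a partner of the first mannosyl transferase, ran the other way with 26.1, 29.4 and 30.8 CPM in space_microg, 15.3 and 26.8 CPM in space_1g, and 24.7, 23.7 and 18.5 CPM on the ground. PIGN, PIGB and PIGK were also lowest in space_1g replicate 1 and ground replicate 3.

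ULBP1, a GPI-anchored ligand of an activating receptor of natural killer cells, had 16.2, 11.4 and 6.10 CPM in space_microg, 45.5 and 10.8 CPM in space_1g, and 6.77, 6.45 and 36.9 CPM on the ground. Its highest values were in the libraries that stand apart, one from each of space_1g and ground.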
